A study of Mus musculus with 5 samples.

Results

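The retromer genes described here are 8 genes of the mouse, Vps35, Vps26a, Vps26b, Vps29, Snx1, Snx2, Snx5 and Snx6, out of 22380 protein-coding genes in the GENCODE vM1 annotation. They were chosen by name, around Vps35, because Vps35 holds the strongest cluster of acetylation peaks in DOP-treated cells that has no peak of untreated cells nearby. Their peaks are those centred within 10 kb of any of their transcript starts, which are 26 of 34286 peaks in DOP-treated cells and 24 of 33355 in untreated cells. The contrast at Vps35 thus made the selection, and its values are a description, with no test.

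The cells are STHdh Q111, a striatal progenitor line of C57BL/6 mice that is homozygous for mutant huntingtin (STHdhQ111/Q111), as are the cells of every group used here. All groups were in serum-free medium. DOP (4-deoxypyridoxine hydrochloride), an inhibitor of sphingosine-1-phosphate lyase, was given at 4 mM for 24 h to the treated group, and the untreated group received vehicle. Chromatin bound by an antibody to histone H3 acetylated at lysine 9 (H3K9ac) was sequenced from 2 samples per group. The 2 samples of a group stand behind 1 peak list, so nothing below has an error between replicates, no difference between the lists could be tested, and a line kept in culture is the only source of cells. The score that the lists attach to each peak is not defined in them, and the depth is unknown. Scores are therefore given beside their percentile within their own list, where 100% is the highest peak. Of the marker genes looked up, all 4 of the mesenchymal list and 2 of 5 progenitor genes (Vim and Gli3) were marked in both lists, whereas Nes, Sox2, Pax6, Gsx2, Isl1, the dopamine receptor genes Drd1a and Drd2, Adora2a, and the astrocyte genes Gfap and Aqp4 had none in either. Of the mesenchymal genes Col1a2 was weak, with its highest peaks at the 23.6th (DOP) and 25.5th (untreated) percentile. Ventral forebrain genes had DOP-treated peaks at 5 of 8 and untreated peaks at 4 (Dlx2 with DOP only, 6382 bp from a start). Mature striatal genes had them at 1 of 4 in each list (Ppp1r1b, with the highest peaks 4054 and 4083 bp from a start). Microglial genes had them at 1 of 2 in each (Cd68, with the highest peaks at -5829 and -5873 bp from a start). Oligodendrocyte genes had them at 2 of 2 and 1 of 2 (Mbp, weak, with DOP only). The highest Mog peaks were also weak (23.7th and 13.5th percentile) and lay at -5499 (DOP) and -5598 bp (untreated) from a start.

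Retromer is a coat complex of endosomes that sorts transmembrane proteins away from degradation, back to the trans-Golgi network or the cell surface. Vps35 is its elongated scaffold, Vps26 (made as the paralogs Vps26a and Vps26b) sits at one end and Vps29 at the other. Snx1, Snx2, Snx5 and Snx6 are sorting nexins with a BAR domain that pair with each other and bend the membrane into tubules. In neurons retromer carries cargo such as the sortilin family, and mutations of VPS35 cause a late-onset form of Parkinson's disease. H3K9ac is a mark of active promoters that lies on the nucleosomes to either side of a transcription start, and a gap between its peaks at the start itself is usual.

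The sequences next to the starts are shown first, since the acetylation of these genes lies around them. Vps35 shares its promoter with Orc6, which encodes a subunit of the origin recognition complex and is read from the opposite strand, and 118 bases separate the starts. The same length upstream of the furthest-upstream protein-coding start was read for the other members and for 22372 protein-coding genes from the NCBIM37 assembly (mm9). Each window is printed 5′ to 3′ on the strand of its gene, cut short where an annotated exon of the neighbouring gene begins, and capitals mark a GC box (GGGCGG) or a CCAAT box, on either strand. The windows lie at chr8:87823413-87823530 (minus strand) for Vps35, chr10:61949554-61949671 (minus) for Vps26a, chr9:26837680-26837759 (minus, 80 bases) for Vps26b, chr5:122804260-122804377 (plus) for Vps29 and chr12:55896691-55896808 (minus) for Snx6.
Vps35 to Orc6: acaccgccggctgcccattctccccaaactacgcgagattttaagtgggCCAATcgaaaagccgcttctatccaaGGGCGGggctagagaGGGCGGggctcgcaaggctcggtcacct
Vps26a: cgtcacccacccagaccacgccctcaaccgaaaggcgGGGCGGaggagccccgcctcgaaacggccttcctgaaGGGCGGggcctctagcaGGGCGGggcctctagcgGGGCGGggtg
Vps26b: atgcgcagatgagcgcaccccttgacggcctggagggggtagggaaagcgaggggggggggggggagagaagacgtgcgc
Vps29: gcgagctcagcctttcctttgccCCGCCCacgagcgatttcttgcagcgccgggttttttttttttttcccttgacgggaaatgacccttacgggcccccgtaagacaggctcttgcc
Snx6: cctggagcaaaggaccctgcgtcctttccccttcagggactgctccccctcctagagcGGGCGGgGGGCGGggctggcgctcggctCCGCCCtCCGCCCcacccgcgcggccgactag

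The Vps35 window holds 2 GC boxes and 1 CCAAT box, the element bound by NF-Y. The Vps26a and Snx6 windows hold 4 GC boxes each, which are binding sites of the Sp family, and the Vps29 window holds 1. Over the whole windows, 5 of the 8 members had a GC box, against 33.5% of all promoters, and Vps35 alone had a CCAAT box, against 22.3%. The YY1 core ATGGCGG, present in 1.26% of promoters, was found at Vps26b only, not within the bases printed. Snx2 alone held the E-box CACGTG, found in 3.90%. The CRE (TGACGTCA, 1.58% of promoters), the NRF1 core (GCATGCGC, 2.05%), the ETS core (CCGGAAG, 6.11%) and the TATA box (TATAAA, 6.64%) were in none of the 8 windows. Apart from the Vps35 intron 1 peak printed further on, the motifs were not searched outside these windows, and a match is a string of letters, not a shown binding site.

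In base composition the Vps35 window was ordinary, with 61.0% G and C and 10 CpG, at the 60.5th and 75.1st percentile of all promoters. The members ranged from 47.5% at Snx1 to 80.5% at Snx2 (median of all promoters 57.6%), and from 6 to 16 CpG (median 5). A protein-coding gene on the opposite strand starts within 1 kb of the start of 5 of the 8 members, compared with 10.6% of all protein-coding genes. Besides Orc6 at Vps35 these are Ncapd3, 81 bases from Vps26b, Rad9b, 136 bases from Vps29, Fam96a, 24 bases from Snx1, and 8430406I07Rik, 6 bases from Snx5 with overlapping ends. Acetylation on that side cannot be assigned to one gene of such a pair. Most of the Snx1 window and all of the Snx5 window lie past the partner's start, so their bases are also those of the partner gene. Vps26a, Snx2 and Snx6 have no such partner, and the nearest start of another gene is 20950 bp away or farther.

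DOP-treated peaks were listed at all 8 members and untreated peaks at 7 of 8, where 57.7% and 56.9% of all protein-coding genes had one. In the DOP-treated list 22 of the members' 26 peaks were shared, meaning that the intervals overlap between lists, and 4 were not. In the untreated list 22 of 24 were shared. Over the whole lists 20% of DOP-treated and 16.7% of untreated peaks had no overlapping partner. Of the 4 DOP-only peaks 3 are those at Vps35 that made the selection, which leaves 1 DOP-only and 2 untreated-only peaks over the other 7 genes. Of all protein-coding genes, 2.39% had DOP-treated peaks only and 1.62% untreated peaks only. These are 535 of the 12910 genes with a DOP-treated peak and 362 of the 12737 with an untreated one. Vps35 was the only such gene among the members, by the rule that chose it.

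The peaks lay close to the starts. Although the window reached 10 kb, the farthest DOP-treated centre lay 1080 bp from a start (Snx2, score 50.1, a DOP-only peak at the 3.75th percentile) and the farthest untreated centre 866 bp (Vps26b). The nearest peaks left outside the window were 17257 bp (untreated) and 17270 bp (DOP-treated) from a Vps29 start, and they lie at Gpn3. In each list 15 centres lay downstream of the nearest start. Introns of the members held 12 of 26 DOP-treated and 13 of 24 untreated centres. A further 3 DOP-treated and 2 untreated peaks were centred in a coding exon and 1 of each list in a 5′ UTR, and the rest lay outside the member gene. Where a member's peak was shared, the centres in both lists differed by 0 to 160 bp with a median of 20 bp, compared with a median of 33.0 bp over all shared DOP-treated peaks.

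**Figure D1:**
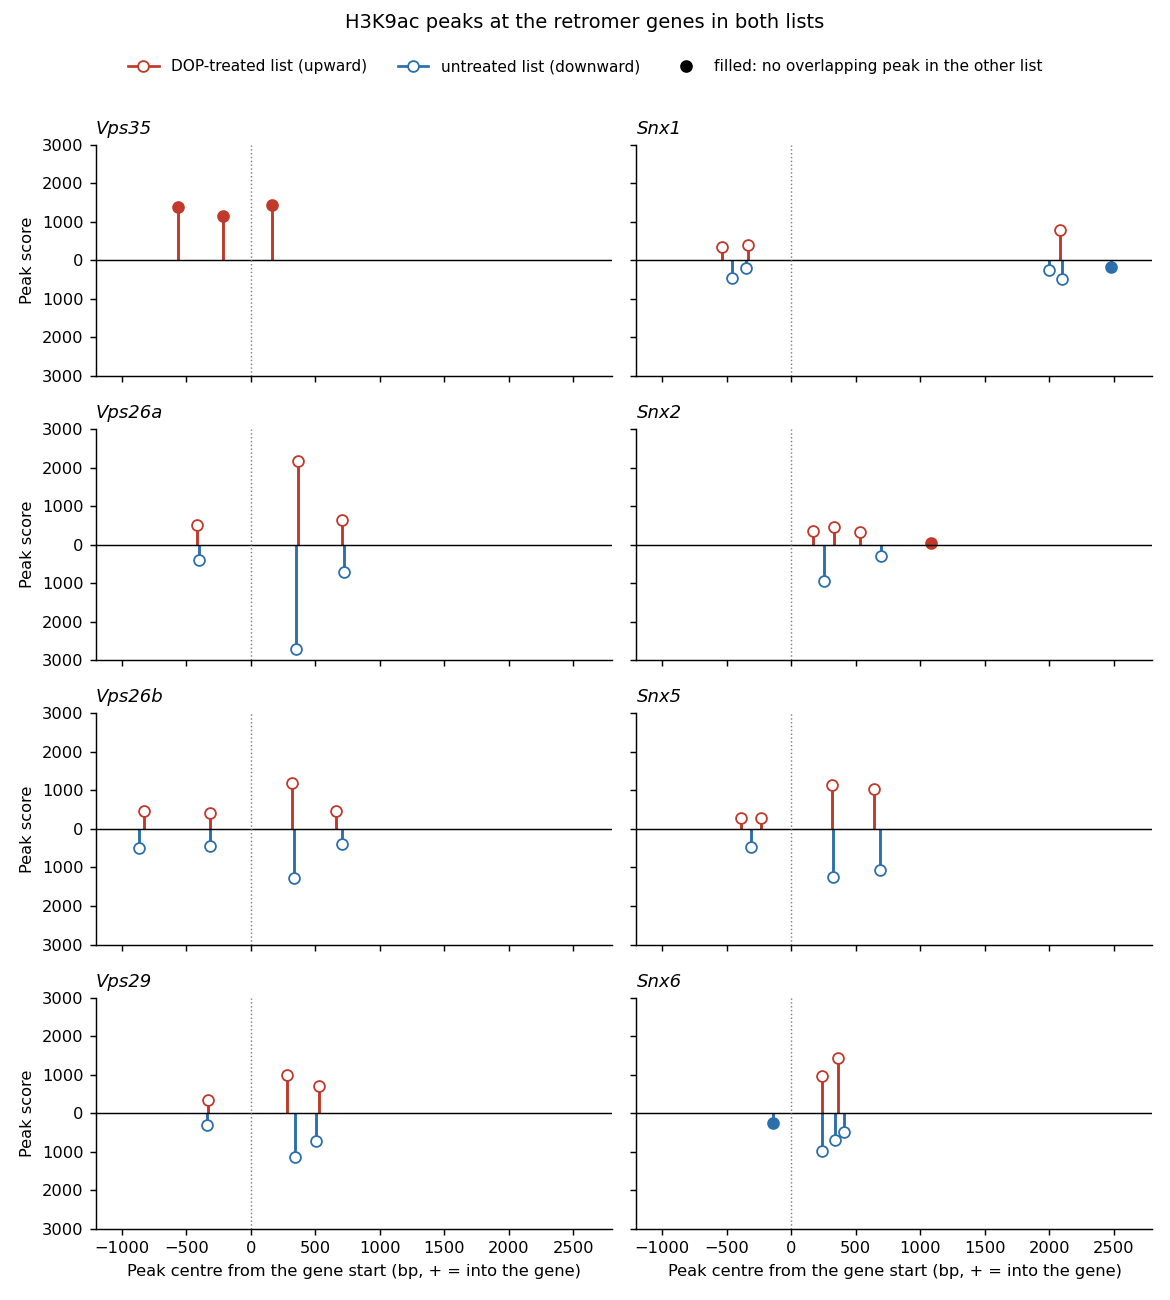
Peaks of the 8 retromer genes by distance of the centre from the furthest-upstream protein-coding start (bp, positive into the gene), with the score upward for the DOP-treated and downward for the untreated list. Filled points have no overlapping peak in the other list; only the panel of Vps35 is empty below the line, and the sorting nexin genes differ between lists in the number and height of their peaks.

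Vps35 (ENSMUSG00000031696.8, chr8:87784296-87823412, minus strand, a single annotated start) had 3 DOP-treated peaks and no listed untreated peak. The strongest had a score of 1444.8 (96.0th percentile) and was centred in the first intron, 163 bp downstream of the start. The next, with a score of 1374.4 (95.2nd percentile), was centred 564 bp upstream of Vps35, inside Orc6. The third scored 1150.9 (91.2nd percentile) and lay 217 bp upstream, just past the Orc6 start. The 3 peaks thus flank the shared promoter on both sides, their centres span 727 bp, and none is centred between the starts. The strongest interval, chr8:87823150-87823349, is wholly intronic, and on the Vps35 strand (5′ to 3′, capitals mark a GC box) it reads as follows.
Vps35 intron 1 peak: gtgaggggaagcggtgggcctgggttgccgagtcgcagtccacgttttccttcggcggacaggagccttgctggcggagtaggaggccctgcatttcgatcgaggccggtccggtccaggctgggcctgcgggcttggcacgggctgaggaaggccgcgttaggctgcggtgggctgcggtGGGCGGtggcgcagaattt
It holds 19 CpG in 200 bases and 68.5% G and C, where the median peak of either list has 59.5%.

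The cluster runs over 927 bp (chr8:87823150-87824076), with 63.4% G and C and 85 CpG. Every one of its 896 words of 32 bases occurs once in the assembly, so the sequence under it is not repeated elsewhere in that reference at this length. The regions under the peaks of the other members were likewise found once, at 100% of words, except the upstream region of Snx1 at 97.3%. The nearest untreated peaks lie 108399 bp away on the higher-coordinate side (score 116.0, 13.5th percentile) and 168272 bp away on the lower side (score 105.0, 12th percentile). Both are weak. With only untreated peaks of the stronger 50%, the distance became 132439 bp.

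The untreated list is thus empty over 277398 bp around Vps35, where the median distance between neighbouring untreated centres is 808 bp. Gaps of that length are not rare in themselves, since 1862 of 33334 (5.59%) are at least as long. Of those 1862, 569 held a DOP-treated peak more than 5 kb from either end and 66 held 3 or more such peaks. Within it the DOP-treated list has no other peak more than 5 kb from the ends than the 3 at Vps35.

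Among DOP-treated clusters with no untreated peak within 5 kb, the order by highest score was Vps35 with 1444.8, Prkd2 with 1037.0, Myo19 with 1006.8 and Cyp1b1 with 987.8. In the reverse direction the highest was Zbtb10 with 1255.3, and Tmem63a reached 1175.3, so that strong clusters listed once were found in both directions. Vps35 heads this order by the rule that chose it. Of 7524 genes with at least 3 DOP-treated peaks, 21 had no untreated peak within 10 kb, and of 7343 genes with at least 3 untreated peaks, 18 had no DOP-treated one.

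The surroundings of Vps35 showed little of this. Within 500 kb of its start there were 78 DOP-treated and 75 untreated peaks, and 16 and 6 of them had no overlapping partner. Over the whole lists this share was 20% of DOP-treated and 16.7% of untreated peaks. Only 8 DOP-treated and 3 untreated peaks stood more than 5 kb from any centre of the other condition. Beyond the 3 of the cluster, these 8 had scores of 76.0 to 101.0 and lay near Nfix, Rnaseh2a and Best2. The 3 untreated ones had scores of 39.3 to 105.0 and lay near Rtbdn and Zfp791.

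**Figure D2:**
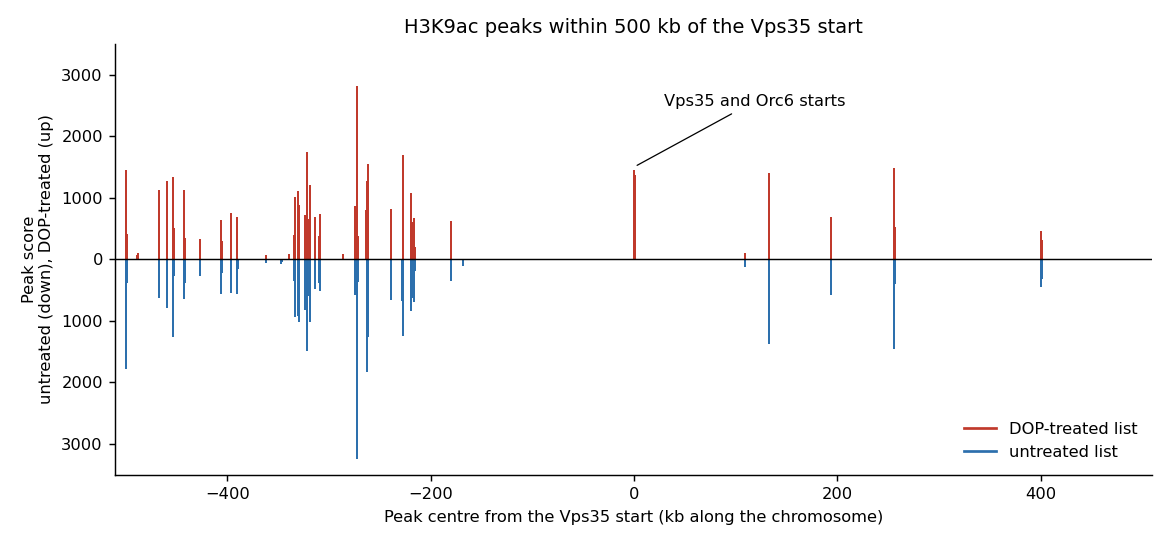
H3K9ac peaks within 500 kb of the Vps35 start by distance along the chromosome (kb), with the score upward for the DOP-treated and downward for the untreated list. Of the 78 upward and 75 downward lines, 8 and 3 stand more than 5 kb from any line of the other list. The tall ones among these are the 3 at the starts of Vps35 and Orc6, with scores of 1150.9 to 1444.8, and the rest score 105.0 or less.

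Of the 35 protein-coding genes that start in this region, Vps35 included, 32 had a DOP-treated and 29 an untreated peak within 10 kb. Vps35, Orc6 and Best2 had DOP-treated peaks only, and the single peak of Best2, a bestrophin channel gene, was weak (score 81.0, 7.58th percentile). Gm6531, the olfactory receptor gene Olfr371 and Mylk3, which encodes the cardiac myosin light chain kinase and lies beyond Orc6, had none in either list. On the Orc6 side the remaining genes had equal numbers in both lists, 1 and 1 at 4921524J17Rik, 2 and 2 at Gpt2, which encodes a mitochondrial alanine aminotransferase, 3 and 3 at the co-chaperone gene Dnaja2, and 3 and 3 at Neto2, an auxiliary subunit of kainate receptors. The highest peaks (DOP-treated first) matched closely at 4921524J17Rik (1401.0 and 1378.0), Dnaja2 (1480.1 and 1454.3) and Neto2 (464.7 and 453.5). At Gpt2 they differed more, with 693.3 and 584.5. None of these genes came near the contrast of Vps35 and Orc6, but that contrast was chosen as the strongest of its kind in the DOP-treated list.

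The other side of Vps35 is gene-dense. In order toward Vps35 it holds, among others, Nfix, Dand5, Gadd45gip1, Calr, Farsa, Syce2, Gcdh, Klf1, Dnase2a, Mast1, Rtbdn, Rnaseh2a, Prdx2, Junb, Hook2, Best2, Asna1, 2310036O22Rik, Tnpo2, Fbxw9, Dhps, Wdr83, BC056474, Man2b1 and Zfp791. To set genes against each other, the scores of all peaks within 10 kb were summed per gene. The sum is readable across split peaks, as scores within a chain of peaks 1 kb apart or less added up to a whole number (within 0.25) in 99.0% of chains of either list, where 61.8% of the single DOP-treated scores did. Over the 29 neighbours with peaks in both lists, the DOP-treated over untreated sum had a median of 1.08 and ran from 0.944 at Nfix, a transcription factor gene, to 1.57 at Hook2, which encodes a dynein adaptor. The sums at Hook2 were 2585.7 and 1647.0. This ratio rests partly on the window edge. The DOP-treated sum takes in a peak of 478.7 that is nearest to Junb. The untreated peak 347 bp from it, with a score of 1010.8, lies just outside the window of Hook2. Over 12375 genes with peaks in both lists the median ratio was 1.07, with quartiles of 0.971 and 1.20. Peaks within 10 kb are shared by many of these crowded genes, such as Junb and Prdx2, so they are not separate measurements.

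The core subunits other than Vps35 kept the same number of peaks in both lists, 10 and 10. Vps26a (ENSMUSG00000020078.8, chr10:61917591-61949553, minus strand) had the strongest peak of the members, in a coding exon, 157 bp from a start in the DOP-treated list (score 2169.9, 99.3rd percentile) and 146 bp in the untreated list (2698.5, 99.7th percentile). Its weaker peaks scored 641.1 and 504.0 with DOP and 713.5 and 402.0 without. The sums were 3315.0 with DOP and 3814.0 without, a ratio of 0.869 and the lowest among the members. Vps26a was thus among the strongly marked genes in both conditions, at the 85.0th and 90.4th gene percentile by summed score.

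Vps26b (ENSMUSG00000031988.9, chr9:26812088-26837679, minus strand), the paralog, had 4 peaks in each list. Its highest, in the 5′ UTR, scored 1191.9 with DOP and 1267.2 without, and their centres were 13 bp apart. The other 3 scored 400.6 to 475.4 with DOP and 387.8 to 496.0 without, and 1 of them had the identical centre in both lists, 312 bp upstream on the Ncapd3 side. The sums of 2525.0 and 2599.0 gave a ratio of 0.972. No peak of Vps26b was unmatched in either list.

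Vps29 (ENSMUSG00000029462.12, chr5:122804378-122814993, plus strand) encodes the subunit that binds the regulators Tbc1d5 and Ankrd27. It had 3 peaks in each list, of 993.1, 713.9 and 340.0 with DOP and 1141.6, 721.4 and 302.0 without. The higher ones lay in the gene, and the lowest lay 329 bp (DOP) and 335 bp (untreated) upstream, in the gene Rad9b. The sums were 2047.0 and 2165.0, a ratio of 0.945. No peak of Vps29 was unmatched.

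The sorting nexin genes had 13 DOP-treated and 14 untreated peaks, and their numbers differed gene by gene although their sums hardly did. Snx6 (ENSMUSG00000005656.8, chr12:55847336-55896690, minus strand) had 2 DOP-treated peaks of 1438.6 and 968.4 and 4 untreated peaks of 986.4, 701.1, 497.7 and 247.8. The weakest of these, centred 145 bp upstream, had no DOP-treated partner, and its interval covers part of the Snx6 window printed above. The sums were 2407.0 and 2433.0, so 2 and 4 peaks carried nearly the same total.

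Snx5 (ENSMUSG00000027423.9, chr2:144075859-144096642, minus strand) had 4 DOP-treated peaks of 1139.6, 1034.4, 290.3 and 278.7 and 3 untreated peaks of 1257.9, 1070.1 and 458.0. The strong pair lay inside the gene and the weaker peaks lay upstream at 8430406I07Rik, where 1 untreated peak stands opposite 2 DOP-treated ones. The sums were 2743.0 and 2786.0. Snx1 (ENSMUSG00000032382.8, chr9:65935940-65974394, minus strand, 7 annotated starts) had 3 DOP-treated peaks of 798.0, 398.7 and 344.3 and 5 untreated peaks of 492.9, 461.8, 238.9, 211.2 and 167.2. The last of these, 691 bp from an internal start, had no DOP-treated partner, and the sums were 1541.0 and 1572.0. At Snx1 the peaks form 2 groups, one upstream at Fam96a and one at a start inside the gene.

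Snx2 (ENSMUSG00000034484.7, plus strand of chromosome 18) was the most weakly marked member. It had 4 DOP-treated peaks of 460.5, 360.2, 338.3 and 50.1 and 2 untreated peaks of 950.3 and 295.7, all in an intron and downstream of its only start. The weakest DOP-treated peak was the DOP-only one described above. The sums of 1209.1 and 1246.0 put Snx2 at the 40.2nd and 43.9th gene percentile.

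Read by their sums, the 7 members with peaks in both lists all had a lower value in the DOP-treated list, at ratios of 0.869 to 0.989 with a median of 0.972. Vps29 was no longer lower with a window of 20 kb, nor Snx6 with the top 50% of each list by score. Over all 12375 genes 31.7% had a lower DOP-treated sum. The sizes are small: the members moved by 1.86 to 5.41 percentile points in rank (median 2.94), and the median gene moved by 2.88. No error stands behind these ratios, and whether they differ from 1 was not tested. Vps35 went the other way by the rule that chose it, with a sum of 3970.1 in the DOP-treated list against no listed untreated peak. That sum was the highest of the 8 members there, at the 90.7th gene percentile. It includes the peaks of 1374.4 and 1150.9, whose nearest start is that of Orc6.

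**Figure D3:**
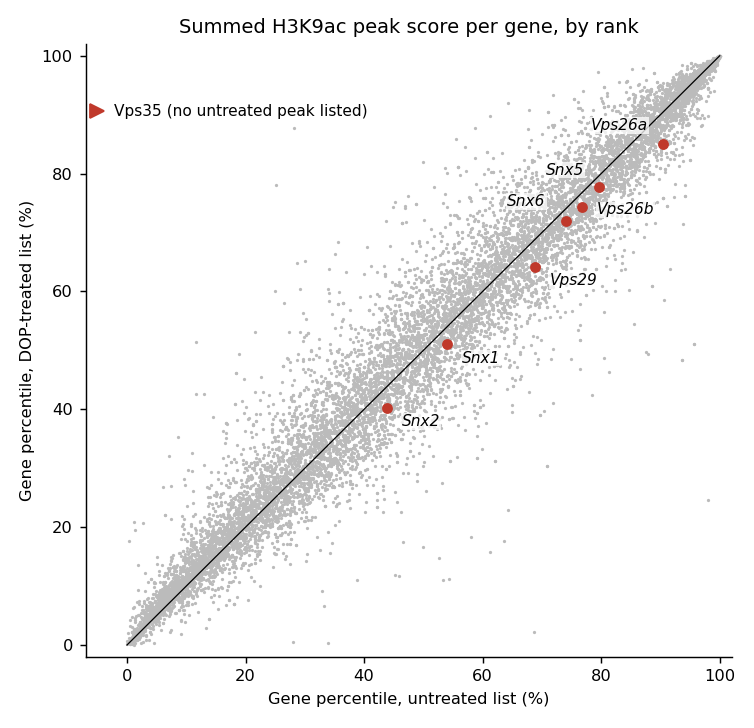
Percentile of the summed peak score of each of 12375 protein-coding genes with peaks in both lists (grey points), untreated list on the x axis and DOP-treated list on the y axis (%), with the diagonal of equal rank. The 7 red points are retromer genes and sit just under the diagonal, and the red triangle at the left edge is Vps35 at 90.7 on the y axis, with no untreated value.

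Of 22380 protein-coding genes, 19.3% (4309) had more DOP-treated than untreated peaks and 16.9% (3785) fewer. These shares include genes without any peak, since only 12910 genes had a DOP-treated and 12737 an untreated peak. Every member had a peak, so the shares are not on a like base with the members. Among the members Vps35, Snx2 and Snx5 had more, Snx1 and Snx6 fewer, and Vps26a, Vps26b and Vps29 equal numbers. The sums did not follow these counts at Snx2 and Snx5, which had more DOP-treated peaks and a lower sum.

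The wider pathway was taken from a list of 28 genes, all found in the annotation. Of these, 26 had a DOP-treated peak (92.9%, against 57.7% of all protein-coding genes) and 25 an untreated peak (56.9% of all). In total, 65 DOP-treated peaks stood against 76 untreated ones. More DOP-treated peaks were seen at 3 genes, fewer at 12 and equal numbers at 11. Over all protein-coding genes, those without a peak included, 19.3% had more and 16.9% fewer. As at Snx6, counts can differ where sums hardly do. Snx32, a sorting nexin related to Snx5 and Snx6, and the receptor gene Sorcs3 had none. Sorcs1, which encodes a sortilin-family receptor, was the only gene with peaks in 1 list, and its 2 DOP-treated peaks were weak (highest score 79.5, 7.32nd percentile).

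By subgroup, the cargo adaptors (3 of 4 genes with a peak) were led by Snx3, which serves the retrieval of Wls. Its highest DOP-treated score was 2000.6 against 1815.2 in the untreated list. Its 3 DOP-treated and 4 untreated peaks had sums of 3458.0 and 3628.9, a ratio of 0.953. The WASH complex, which builds actin on endosomes, had peaks at all 5 genes, led by Washc4 with 1524.0 against 959.5. That gene had 1 DOP-treated and 2 untreated peaks, and its sums of 1524.0 and 1733.0 gave a ratio of 0.879. The 7 recruiters and regulators all had peaks and were led by Rab7, the small GTPase that brings retromer to late endosomes, with 1573.4 against 1585.7, sums of 2253.0 and 2713.0 and a ratio of 0.830. Ehd1, a membrane-remodelling ATPase gene named after its values were seen, came next at 1573.3 against 1673.2, and its sums were 6695.0 and 6070.1, higher with DOP. Of the related retriever complex, Vps26c led with 1233.0 against 881.7 and had the lowest ratio of the list, 0.763 (sums 1781.1 and 2333.0). Among 10 cargo genes, 9 had a DOP-treated and 8 an untreated peak, led by Wls, the carrier of Wnt proteins, with 1590.4 against 1324.5 and a ratio of 1.02.

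Over the 25 pathway genes with peaks in both lists, 10 had a lower DOP-treated sum (40%, against 31.7% of all genes), and the ratios ran from 0.763 to 1.58 with a median of 1.07. The pathway as listed therefore spread to both sides of 1 around the same median as all genes.

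**Figure D4:**
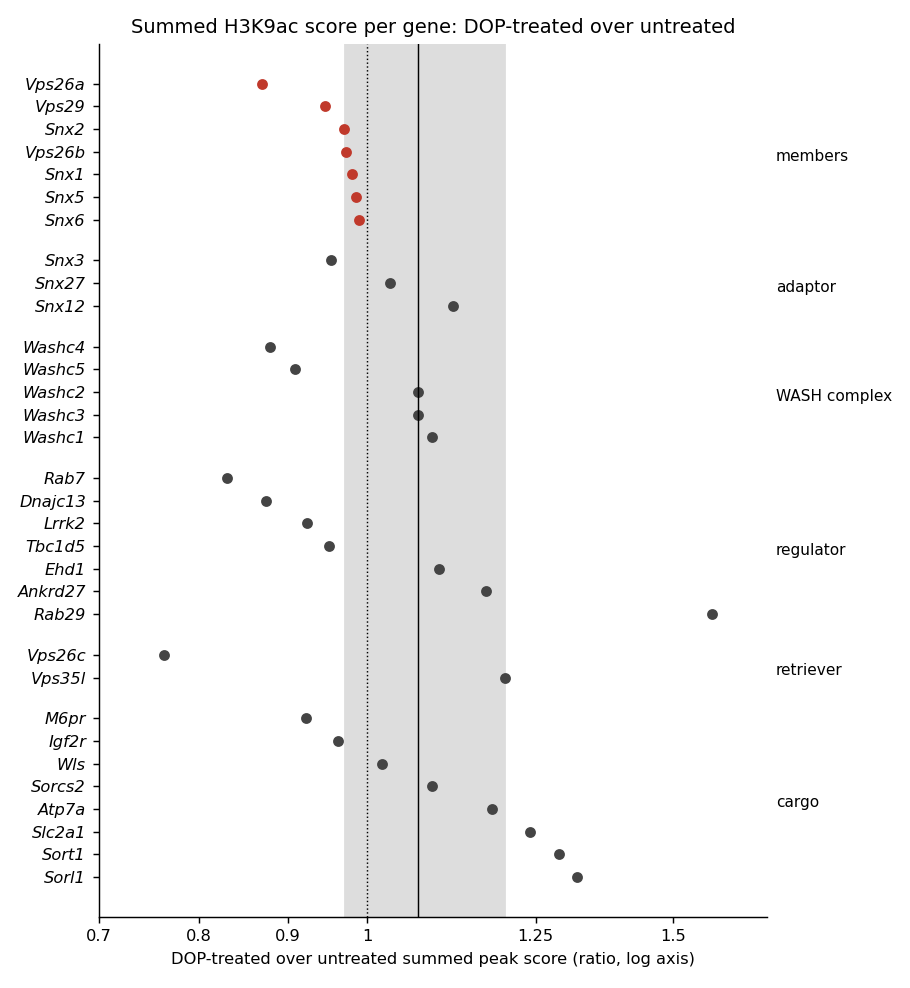
DOP-treated over untreated summed peak score (ratio, log axis) of the retromer genes with peaks in both lists (red) and of 25 further pathway genes by subgroup (grey points). The solid line and band are the median (1.07) and quartiles (0.971 to 1.20) of 12375 genes and the dotted line is a ratio of 1; the 7 members sit at 0.869 to 0.989, left of the dotted line, and the other subgroups spread to both sides.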

How the data were processed

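H3K9ac ChIP-seq peaks of DOP-treated and untreated STHdh Q111 cells were used as 2 deposited lists, 1 per condition of 2 samples each. The authors aligned reads to mm9 (Bowtie 2 by the study's methods, BWA 0.7.10 by the submitters' processing notes) and called peaks with GPS/GEM. How samples and the IgG control entered the call, and the threshold, are not given in the sources used here. The lists hold more peaks than the study's methods state for either condition, and the reason is not given there. Each peak of the deposited lists has a centre, an interval of 200 bp and a score, the authors' value, of unknown definition. Samples were grouped by their labels. No test was made, as the files hold no replicates. The IgG sample and the RNA-seq experiment were not analysed here.

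The members and gene lists were chosen with earlier results of these data known. Genes were the protein-coding genes of GENCODE vM1 on NCBIM37, and 0 peaks ran past a chromosome end. Peaks were assigned to every gene with a transcript start at most 10 kb from the centre, and were shared when intervals overlapped by 1 bp or more. A score percentile is the share of a list's peaks at or below that score, and a gene percentile the same for summed scores over genes with peaks. The named genes were the 8 members, all protein-coding genes starting within 500 kb of Vps35, and, of the pathway list, those with peaks in 1 list only and the one with the highest DOP-treated score in each subgroup. Prkd2, Myo19, Cyp1b1, Zbtb10 and Tmem63a were named after their values were seen. Python 3.11.15 with numpy 2.4.6 and matplotlib 3.10.9 was used, and the counting was tested on simulated data. A few genes that these rules would name are not reported here. Alternatives were other windows, sharing rules, score limits and start sets.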

Additional observations from a re-analysis of the deposited data

How the results depend on the processing

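No paired analysis was possible because the files hold no value per sample, and no replicate was left out for the same reason. Without depth or a defined score, an unlisted peak cannot be told apart from one just under the threshold of the call. Of 59 recomputed values for the main counts and distances, 54 kept within 1.5 times. The 3 DOP-treated and 0 untreated peaks at Vps35 were the same in all 5 settings, but these settings could not have shown otherwise for either list. The 3 DOP-treated peaks lie within 1 kb of the only start, at the 91.2nd percentile or above. The next DOP-treated peak is 108367 bp away. No window reached the nearest untreated peak, 108399 bp away, and a score limit only removes peaks. The exceptions, whose cause was not tested beyond what each setting removes, were these. With the top 50% of each list by score, 17 DOP-treated peaks stood near the members (26 in full) and 46 untreated peaks within 500 kb of Vps35 (75 in full). Within 250 kb there were 18 DOP-treated and 16 untreated peaks. When sharing meant centres within 500 bp, 0 untreated-only peaks were left near the members. The number of members with a lower DOP-treated sum, tried in settings added after seeing the data, was 7 within 1 kb, at a score of at least 100 and with protein-coding starts, and 6 within 20 kb (all but Vps29, whose wider window takes in the peaks at Gpn3) and for the top 50% (all but Snx6). Of 105 values for single genes and for all genes, 97 kept within 1.5 times. Genes with untreated peaks only were 362, and 155 at a score of at least 100.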
